A study of Bos taurus with 4 samples.

Results

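The genes described here are markers of endothelial cells, the cells that line blood vessels. A total of 10 genes were listed, and their probes were found on the array through the reference accession that each probe carries and the bovine gene symbol paired with that accession. Among the 43653 non-control probes, 19 were matched to 9 of the genes (*kdr*, *flt1*, *tek*, *tie1*, *eng*, *pecam1*, *cdh5*, *cldn5*, and *esam*), and no probe was matched to *vwf*, the gene of the clotting glycoprotein that endothelial cells store. Expression was measured in semitendinosus muscle from bulls of the Hereford (HER, beef) and Holstein-Friesian (HF, dairy) breeds at 15 months of age, on 4 dual-color Agilent bovine arrays. Each array paired 1 bull of either breed, so that 4 HER and 4 HF bulls were measured once each, and the replicates of the labels are called array 1 to array 4 below. No treatment was given in the labels, and the bulls differed by breed. Fat and connective tissue had been removed from the samples, and the endothelial RNA was measured within the bulk muscle. In a bulk sample, fewer endothelial cells and less RNA per endothelial cell cannot be told apart.

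Blood capillaries run along the fibers of skeletal muscle and supply them with oxygen, glucose, and fatty acids. Endothelial cells are kept alive and made to sprout by vascular endothelial growth factors, which bind the kinase receptors KDR and FLT1, while angiopoietins act through the kinase receptor TEK and its partner TIE1 to keep vessels stable. Endothelial cells are joined to each other by cadherins, claudins, and adhesion molecules of the immunoglobulin family, and these junctions set how leaky a vessel is.

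All signed values are log2 ratios of the red dye (Cy5) over the green dye (Cy3) of an array. The labels give Cy3 to the HER bull and Cy5 to the HF bull, but also remark that dyes were exchanged. The breed behind each dye is therefore not settled, so values are given by dye, and a dye effect cannot be told apart from a breed difference because all arrays ran in 1 orientation. If the dyes are as the labels give them, the direction used here is opposite to that of the study's tables, which take the ratio as HER over HF. A ratio above 0 means more signal in the Cy5 bull. Levels are normalized log2 signals of 1 probe in 1 bull and are compared between bulls for the same probe alone. Where a gene had several probes, the brightest was used for the gene.

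Over the whole array, 32606 probes were well above background in the same channel on all 4 arrays and were tested, and 1078 of them (3.31%) differed between the dyes at a Benjamini-Hochberg adjusted p under 0.05 (limma). Among these, 639 (1.96%) were higher in Cy5 and 439 (1.35%) were lower. The median signal per array ranged from 129 to 160.5 in Cy5 and from 77 to 138 in Cy3, over a local background of 37 to 41. The log2 ratios of array pairs correlated at r of 0.332 to 0.618 over the tested probes, given as a description across probes of 1 slide. The labelled tissue was checked by markers of muscle fibers, and all 8 tested genes of that list were above background in both channels on all 4 arrays. Among the 9 endothelial genes, 8 were.

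No endothelial marker was called different between the dyes. Of the 19 probes, 18 passed the filter on dim probes and 0 were called, against 3.31% of all tested probes, and 1 (*tie1*) had an unadjusted limma p of at most 0.05, against 24.7% of all tested probes. The study's criterion, a fold change of 1.3 or more together with an unadjusted p no higher than 0.05, was met by 0 of the 18 in limma, against 14.4% of all tested probes. With the deposited log ratios of the scanner software, or with plain background subtraction, *flt1* and *tie1* met it, and with median centring 6 probes did. It was also met by 2 probes of *cldn5* in a fit of separate channels or without array 2. With an intensity trend and robust prior 1 probe of *cldn5* met it, and without array 1, 1 probe of *cdh5*. The 14.4% does not refer to these alternatives, for which the share of all tested probes meeting the criterion is not given here. The smallest adjusted p of a member was 0.135 (limma). By their mean, 9 probes lay above 0 and 9 below it, and by gene 5 were above and 4 below, with a median log2 ratio of 0.077 and a range from -0.25 to 0.55. The median over all tested probes was 0.011.

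**Figure D1:**
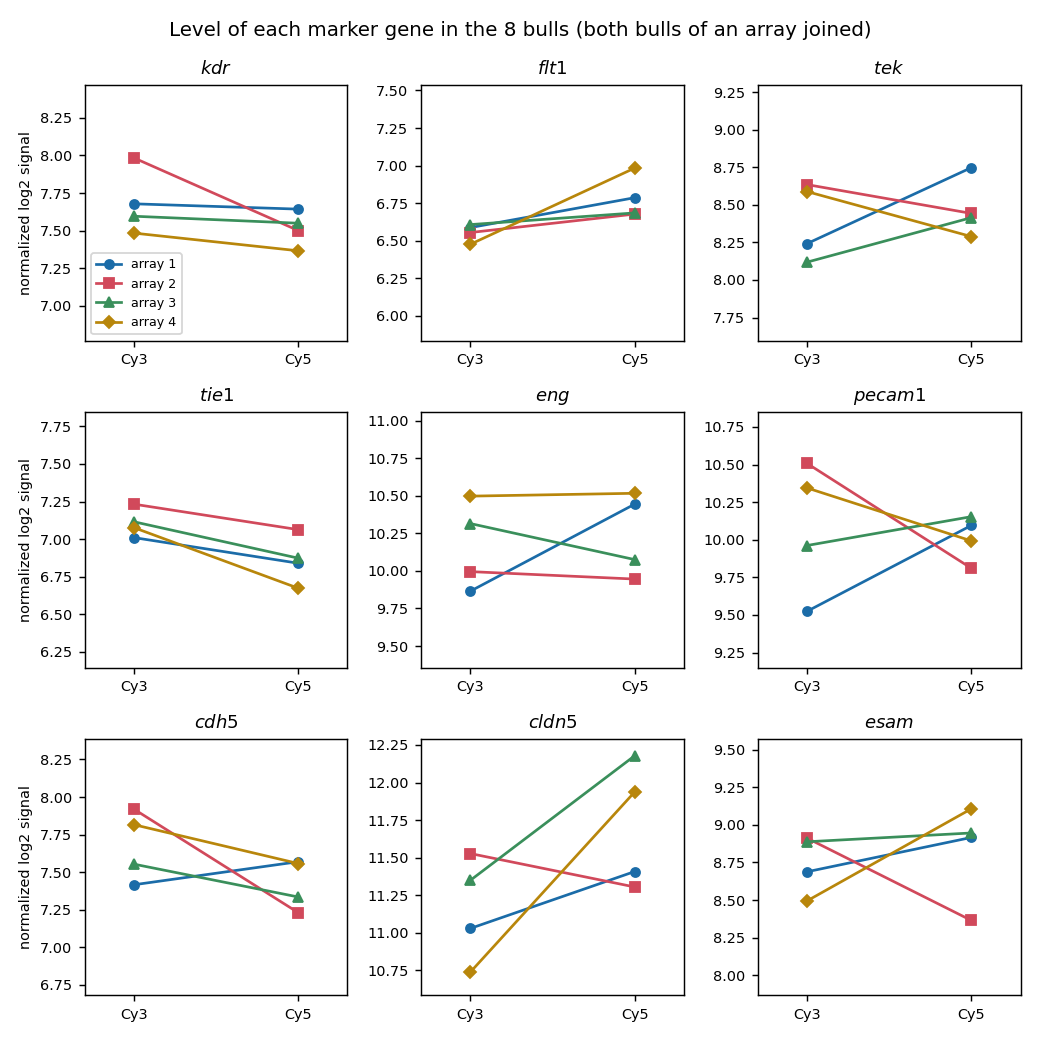
Normalized log2 signal (vertical axes, 1 panel a gene, all spanning the same number of units) of the brightest probe of each endothelial marker gene in the 4 Cy3 and the 4 Cy5 bulls, with both bulls of an array joined by a line. The lines of *flt1* all climb from Cy3 to Cy5 and those of *kdr* and *tie1* all descend, while the other 6 genes have lines in both directions.

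The receptors of the vascular endothelial growth factors gave small ratios. The product of *kdr* is the main signaling receptor of VEGFA on blood vessels. The level of *kdr* was 7.64, 7.50, 7.55, and 7.37 in the Cy5 bulls of arrays 1 to 4 and 7.68, 7.98, 7.60, and 7.48 in the Cy3 bulls of the same arrays. The Cy5 bull was the lower one on every array, by far the most on array 2, whose Cy3 bull was the highest of the 8, but the levels of the groups overlapped. The log2 ratio was -0.17 ± 0.21 (SD, n = 4, limma adjusted p = 0.370), and with each array centered on its median in place of loess it was 0.071, so its sign rests on the normalization. The second probe of *kdr* was dim, above background in Cy3 on 2 arrays, and its log2 ratio was -0.0047 ± 0.086 (SD, n = 4). It was lower in Cy5 on array 1 (-0.13) and higher on the other 3 arrays, so it did not repeat the pattern.

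The product of *flt1* also binds VEGFA, tightly, but signals weakly, and in its soluble form it holds VEGFA away from KDR. The level of *flt1* (probe A_73_P451641) was 6.79, 6.68, 6.69, and 6.98 in the Cy5 bulls and 6.59, 6.55, 6.61, and 6.48 in the Cy3 bulls. Every Cy5 bull was above every Cy3 bull, and *flt1* held the only probe of the 18 whose groups did not overlap, as did 14.1% of all tested probes. On arrays 1 to 4 the log2 ratio was 0.20, 0.12, 0.078, and 0.51, with a mean of 0.23 ± 0.19 (SD, n = 4), a 95% interval of -0.017 to 0.47 and a limma adjusted p of 0.229. The probe was near the background, with the Cy3 signal well above it on 3 of the 4 arrays, and the size of the ratio moved with the background correction. It was 0.52 with plain subtraction of the background (limma adjusted p = 0.114) and 0.82 with the processed signals of the scanner software (limma adjusted p = 0.0932). The second probe of *flt1*, also with Cy3 above background on 3 arrays, did not repeat the pattern, as its log2 ratio was 0.33 on array 1 and -0.046, -0.030, and -0.12 on the others, with a mean of 0.032 (limma adjusted p = 0.881).

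The angiopoietin receptors were each read by 1 probe. The product of *tek* is the receptor that angiopoietins bind. Its level was 8.75, 8.44, 8.41, and 8.29 in the Cy5 bulls and 8.24, 8.63, 8.12, and 8.59 in the Cy3 bulls. The groups overlapped, with the Cy5 bull higher on arrays 1 and 3 and lower on arrays 2 and 4. The log2 ratio was 0.078 ± 0.39 (SD, n = 4, limma adjusted p = 0.804), with a 95% interval of -0.30 to 0.46.

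The product of *tie1* binds no angiopoietin by itself and forms complexes with TEK. The level of *tie1* (probe A_73_121339) was 6.84, 7.06, 6.87, and 6.67 in the Cy5 bulls and 7.01, 7.23, 7.12, and 7.08 in the Cy3 bulls. The Cy5 bull was the lower one on every array, but the highest Cy5 bull was above the lowest Cy3 bull, so the groups overlapped. Its log2 ratio was -0.17, -0.17, -0.24, and -0.40, with a mean of -0.25 ± 0.11 (SD, n = 4) and a 95% interval of -0.45 to -0.047, which is 1.19-fold lower in Cy5. This was the smallest SD of the 9 genes, and the unadjusted limma p of 0.0233 did not hold after adjustment over all tested probes (adjusted p = 0.135). The mean was -0.45 with plain background subtraction and -0.50 with the processed signals of the scanner software (limma adjusted p of 0.102 and 0.0976). The probes with 1 direction on all 4 arrays were that of *tie1* and the brightest ones of *kdr* and *flt1*, hence 2 lower and 1 higher of 18, while of all tested probes 32.7% kept 1 direction, 14.5% lower and 18.3% higher.

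Endoglin, the product of *eng*, is a co-receptor that helps ligands of the transforming growth factor β family to signal in endothelial cells. It had 4 tested probes. The brightest gave 10.44, 9.95, 10.07, and 10.52 in the Cy5 bulls and 9.87, 9.995, 10.31, and 10.50 in the Cy3 bulls. Both groups covered nearly the same range, and array 1 alone showed a clear difference, with a log2 ratio of 0.58 against -0.050, -0.24, and 0.019 on the others. The mean was 0.077 ± 0.35 (SD, n = 4, limma adjusted p = 0.790), and the other 3 probes lay at -0.037, -0.047, and 0.071. The probes of *eng* did not share a sign, and their means differed by 0.12 at most.

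**Figure D2:**
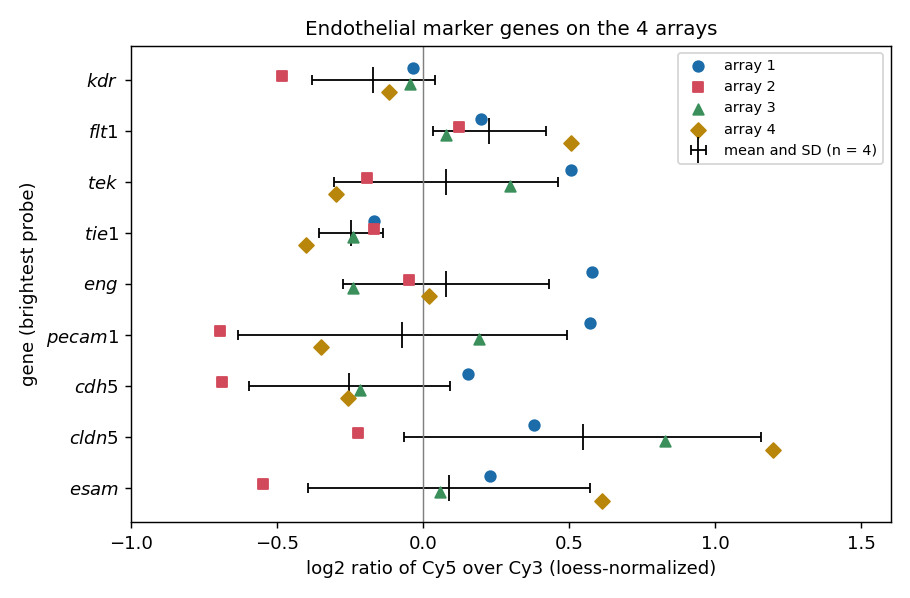
Loess-normalized log2 ratio (horizontal axis, Cy5 over Cy3) of the brightest probe of each endothelial marker gene on arrays 1 to 4, with the mean and SD as black bars. Array 2 lies left of 0 for 8 of the 9 genes and array 1 right of 0 for 7 of the 9, and with median centring the means of *kdr* and *pecam1* lie above 0.

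The genes of endothelial junctions held the largest ratio and the 3 largest SDs. The product of *pecam1* is an adhesion molecule at cell borders that platelets and leukocytes also carry. Its level was 10.09, 9.81, 10.15, and 9.99 in the Cy5 bulls and 9.52, 10.51, 9.96, and 10.34 in the Cy3 bulls. The Cy3 bulls spread over 0.98 log2 units and enclosed all Cy5 bulls, which spread over 0.34. Its log2 ratio was 0.57, -0.70, 0.19, and -0.35, with a mean of -0.072 ± 0.56 (SD, n = 4, limma adjusted p = 0.874), and this mean turned to 0.52 with median centring, 0.14 without array 2, and 0.022 without array 4. The second probe of *pecam1* gave -0.19 ± 0.38 (SD, n = 4, limma adjusted p = 0.512).

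The product of *cdh5* is vascular endothelial cadherin, the core of the adherens junction, and is largely specific to endothelial cells. Its level was 7.57, 7.23, 7.34, and 7.56 in the Cy5 bulls and 7.42, 7.92, 7.55, and 7.82 in the Cy3 bulls. The Cy5 bull was the lower one on arrays 2, 3, and 4, and the groups overlapped. Its log2 ratio on arrays 1 to 4 was 0.15, -0.69, -0.22, and -0.26, with a mean of -0.25 ± 0.34 (SD, n = 4, limma adjusted p = 0.335), which was -0.048 with median centring. The second probe gave the same signs on all 4 arrays and a mean of -0.20 ± 0.31 (SD, n = 4, limma adjusted p = 0.407). A further probe of *cdh5* was the 1 of the 19 not tested, being well above background on 2 arrays in Cy5 and on 1 in Cy3, and its log2 ratio without the filter was 0.015 (limma adjusted p = 0.918).

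The product of *cldn5* is the main claudin of endothelial tight junctions. The level of *cldn5* (probe A_73_P305616) was 11.41, 11.31, 12.18, and 11.94 in the Cy5 bulls and 11.03, 11.53, 11.35, and 10.74 in the Cy3 bulls. The Cy5 bulls of arrays 3 and 4 were above all others, while array 2 ran the other way and made the groups overlap. The log2 ratio was 0.38, -0.22, 0.83, and 1.20, with a mean of 0.55 ± 0.61 (SD, n = 4), which is 1.46-fold. This was the largest ratio among the 9 genes, and it exceeded in size those of 91.7% of all tested probes. Its 95% interval was -0.018 to 1.11, and the limma p of 0.0555 became 0.215 after adjustment. A second probe of *cldn5* gave 0.53 ± 0.62 (SD, n = 4, limma adjusted p = 0.227), and the remaining one gave 0.20 ± 0.27 (SD, n = 4, limma adjusted p = 0.352), with array 2 below 0 and the other arrays above it for each. Left out 1 at a time, array 2 moved the mean of the brightest probe to 0.80 (limma adjusted p = 0.144) and array 4 to 0.33 (limma adjusted p = 0.458).

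The product of *esam*, the last of the junction genes, is an adhesion molecule of tight junctions that platelets share. Its level was 8.92, 8.36, 8.95, and 9.11 in the Cy5 bulls and 8.69, 8.91, 8.89, and 8.49 in the Cy3 bulls. The Cy5 bull of array 2 was the lowest of the 8 and that of array 4 the highest, so the groups overlapped. Over the arrays the log2 ratio was 0.23, -0.55, 0.058, and 0.61, with a mean of 0.088 ± 0.48 (SD, n = 4, limma adjusted p = 0.817).

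**Figure D3:**
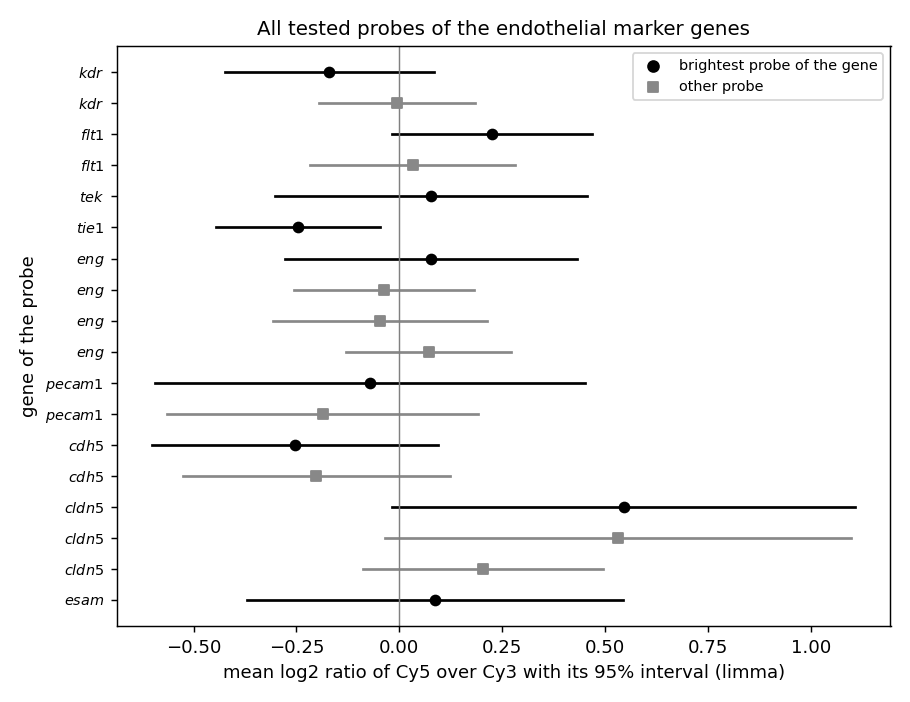
Mean log2 ratio of Cy5 over Cy3 (points) with its 95% interval from limma (lines) for the 18 tested probes of the endothelial marker genes, the brightest probe of each gene in black and the others in gray. The interval of *tie1* alone leaves out 0, and with median centring 4 of these probes, of *cldn5*, *eng*, and *esam*, were called higher.

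The normalization bore on the whole group. Median centring moved the median log2 ratio of all tested probes to 0.24, and under it 32.9% of all tested probes were called, of which 93.4% were higher in Cy5, against 59.3% with loess. Under median centring 4 of the 18 endothelial probes were called, all higher in Cy5, namely a pair of *cldn5* and 1 each of *eng* and *esam*. The limma adjusted p was 0.00294 for *cldn5* (log2 ratio 1.21), 0.0295 for *eng* (0.68), and 0.0260 for *esam* (0.55). The median of the 9 genes was then 0.50, which is 0.26 above that of all tested probes, whereas with loess it was 0.066 above it. Of the other lists given below, muscle fibers then had a median of 1.15 (0.92 above all tested probes). That of the junction partners was 0.68 (0.44 above), and that of the further endothelial genes 0.64 (0.40 above). The fibroblast, adipocyte, and satellite cell medians lay below 0, at -0.36, -0.37, and -0.36. The rise was thus not particular to the 9 genes.

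The ratios of the 9 genes leaned to one side on single arrays. On array 1, 7 of the 9 were higher in the Cy5 bull with a median log2 ratio of 0.23, on array 2 only *flt1* was, with a median of -0.22, on array 3 the number was 5, with a median of 0.058, and on array 4 the number was 4, with a median of -0.12. The share of all tested probes below 0 was 46.7% to 49.5% on the 4 arrays, and their medians lay between 0.0036 and 0.021. On array 2 the Cy5 bull was the lowest of the Cy5 bulls for 6 of the 9 genes, and the Cy3 bull was the highest of the Cy3 bulls for 7 of the 9. The matching shares over all tested probes are not given here, so whether this was particular to the 9 genes was not tested. The medians of the other 13 lists on array 2 ran from -0.42 (fibroblasts) to 0.98 (lymphatic endothelium), with -0.24 for muscle fibers, -0.18 for mural cells, and 0.52 for leukocytes. The medians of muscle fibers, mural cells, and leukocytes were 0.39, 0.060, and 0.12 on array 1 and -0.33, -0.21, and 0.22 on array 3. On array 4 they were 0.22, 0.00080, and 0.50. The part of these cell types in the endothelial values was not tested. The SD over the 4 arrays had a median of 0.35 in the 9 genes, from 0.11 (*tie1*) to 0.61 (*cldn5*), and of 0.21 over all tested probes.

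The profile of the 9 genes over the 4 arrays, as the mean of their log2 ratios, was 0.27, -0.33, 0.078, and 0.10. Among 9409 other named genes, the nearest by Euclidean distance over the 4 arrays were *vegfa*, the ligand of KDR and FLT1, at 0.10, *mertk*, a receptor of phagocytes for dying cells, at 0.12, and *atp5mc2*, a subunit of mitochondrial ATP synthase, at 0.13. The log2 ratio of *vegfa* was 0.20, -0.32, 0.12, and 0.17. The members themselves lay farther from their own mean, at 0.42 to 1.34. With 4 arrays such a likeness is a description.

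The ligands and co-receptors of these receptors were taken as a list of 21 genes, of which 16 were tested, 0 were called higher and 1 lower, against 1.96% and 1.35% of all tested probes, with a median log2 ratio of -0.053. At an unadjusted limma p of at most 0.05 there were 2 higher and 4 lower, against 24.7% of all tested probes in either direction. The gene called was *angpt1*, which encodes the angiopoietin that activates TEK and is made by cells around the vessel. Its log2 ratio was -0.65, -1.64, -0.88, and -1.12 on arrays 1 to 4, with a mean of -1.07 ± 0.43 (SD, n = 4, limma adjusted p = 0.0406), and the other probes of *angpt1* gave -0.56 and -0.32 (limma adjusted p of 0.0685 and 0.137). The Cy5 bull was the lower one on all 4 arrays for each of the 3 probes. Leaving out any 1 array ended the call, with limma adjusted p from 0.0592 to 0.115. Over all tested probes the number called then fell from 1078 to between 5 and 115, so this loss was not particular to *angpt1*. The log2 ratio of *angpt2*, whose product can block TEK, was 0.47 (limma adjusted p = 0.153), and that of *vegfa* was 0.043 (limma adjusted p = 0.855). Among the partners of the junction proteins, 8 of 13 listed genes were tested and 0 were called, with 2 at an unadjusted limma p of at most 0.05 and a median of 0.13.

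Among the 50 further endothelial genes listed, 37 were tested, 4 were called higher and 0 lower, against 1.96% and 1.35% of all tested probes, and the median log2 ratio was 0.14. At an unadjusted limma p of at most 0.05 there were 14 higher and 1 lower, against 24.7% of all tested probes in either direction. By their mean, 27 genes lay above 0 and 10 below it. On all 4 arrays 16 were higher and 3 lower, against 18.3% and 14.5% of all tested probes. The genes called were *gata2*, a transcription factor of endothelial and blood cells, at 0.99 ± 0.34 (SD, n = 4, limma adjusted p = 0.0348), *s1pr1*, a receptor of sphingosine 1-phosphate, at 0.87 ± 0.40 (adjusted p = 0.0495), *ecscr*, an endothelial surface protein, at 0.69 ± 0.27 (adjusted p = 0.0449), and *ramp3*, a partner of the adrenomedullin receptor, at 0.68 ± 0.13 (adjusted p = 0.0298). The second probe of *ecscr* gave 0.67 and was called too, whereas the second probe of *s1pr1* gave 0.077 and the other 3 of *gata2* gave -0.0094, 0.28, and 0.083. The only probe of *ramp3* was above background in Cy3 on 2 arrays, and its log2 ratio was 1.37 with plain subtraction and 2.10 with the processed signals of the scanner software. With those processed signals *ecscr* and *s1pr1* were not called (limma adjusted p of 0.0679 and 0.0593). Each of the 4 genes was higher in Cy5 on all 4 arrays, and none stayed called once any 1 array was left out. Of the lymphatic endothelial genes, 4 of 6 were tested and all 4 means were above 0. At an unadjusted limma p of at most 0.05 there were 3 higher and 0 lower, and 1 gene was called. This was *ccl21*, a chemokine that guides leukocytes into lymph vessels, at 1.33 ± 0.31 (SD, n = 4, limma adjusted p = 0.0218), with 1.36 for its second probe. The call of *ccl21* also ended with any 1 array left out (limma adjusted p from 0.0558 to 0.0840). The log2 ratio of *lyve1*, a receptor of hyaluronan on lymph vessels and macrophages, was 1.40 ± 0.96 (SD, n = 4, limma adjusted p = 0.0809), with 1.298 and 1.19 for its other probes (limma adjusted p of 0.0499 and 0.0597), and that of *prox1*, the transcription factor of lymphatic identity, was 0.055.

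**Figure D4:**
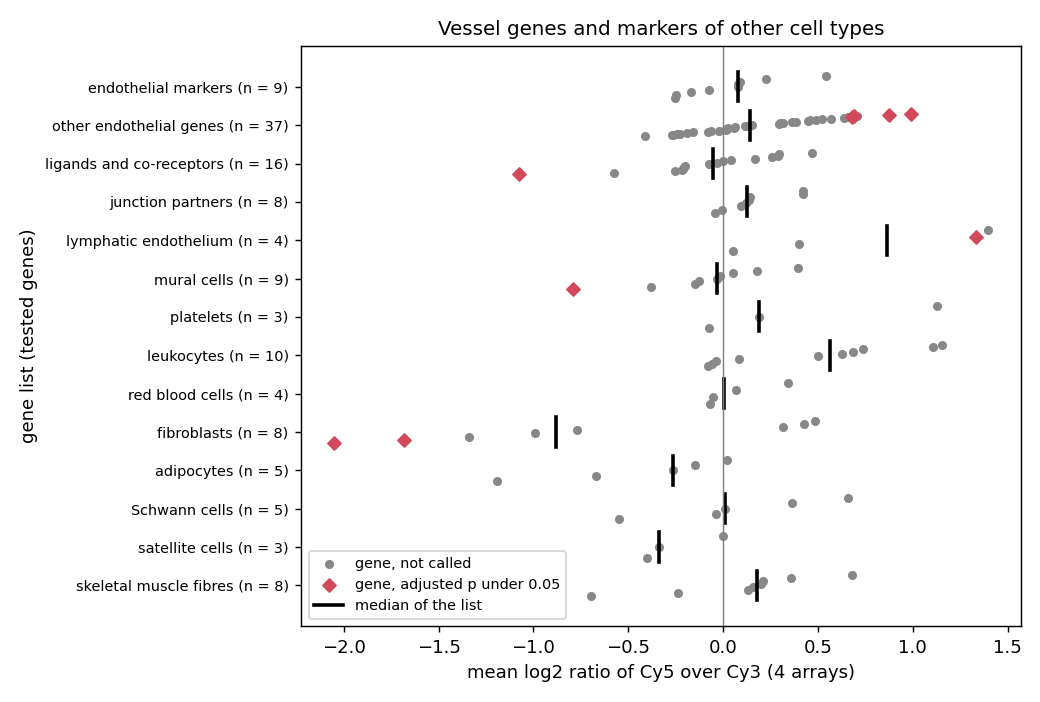
Mean of the log2 ratios of the 4 arrays (horizontal axis, Cy5 over Cy3) of each tested gene (points) of the endothelial marker list and of 13 other lists, with the genes called as red diamonds and the median of each list as a black bar. The endothelial markers lie near 0 with none called, and with median centring in place of loess the median of the markers is 0.50, that of all tested probes is 0.24, and *cnn1* is no longer called.

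Markers of the other cells that a piece of muscle can hold are given beside these values, to be read against the 3.31% of all tested probes called and the 24.7% at an unadjusted limma p of at most 0.05. Of the leukocyte markers, which share *pecam1*, 10 of 12 were tested, 0 were called and the median log2 ratio was 0.56, with 6 at an unadjusted limma p of at most 0.05. Of the platelet markers, 3 of 10 were tested, 0 were called, 1 had an unadjusted limma p of at most 0.05, and the median was 0.19. Their log2 ratios were 1.13 for *f13a1*, 0.19 for *mmrn1*, and -0.076 for *itga2b*. Of the mural cell markers, 9 of 11 were tested and 1 was called lower, *cnn1*, a contractile protein of smooth muscle, at -0.79 (limma adjusted p = 0.0364), while the second probe of *cnn1* gave -0.13 (limma adjusted p = 0.396), and the median of the list was -0.031. Of the fibroblast markers, all 8 were tested, 2 collagens were called lower (*col1a1* at -2.05 and *col3a1* at -1.68, limma adjusted p of 0.0290 and 0.0368), and the median was -0.88. The fibroblast list was split, with 5 means below 0 and 3 above it, up to 0.49. At an unadjusted limma p of at most 0.05, 4 of its genes were lower and 1 higher. With any 1 array left out, neither *cnn1* nor *col1a1* stayed called, and *col3a1* did so without array 2 alone. The adipocyte, Schwann cell, satellite cell, red blood cell, and muscle fiber lists held 0 calls, with 1, 2, 2, 0, and 2 genes at an unadjusted limma p of at most 0.05 and medians of -0.26, 0.0080, -0.34, 0.0069, and 0.18. The summed signal of the mural cell markers ranged from 12.69 to 12.87 log2 units in the Cy5 bulls and from 12.84 to 12.96 in the Cy3 bulls, that of the leukocyte markers from 13.13 to 14.08 and from 12.45 to 13.001, and that of the endothelial markers from 12.47 to 13.01 and from 12.31 to 12.78. The sums are log2 values of the added normalized signals of the tested genes, so the brightest genes weigh most. Of the 10 tested leukocyte markers, 9 were above background in both channels on all arrays, and 3 lay below 0 by their mean. The sums of the leukocyte markers did not overlap between the dyes. Nor did those of the 3 tested platelet markers (10.40 to 11.37 in Cy5, 9.79 to 10.21 in Cy3) and of lymphatic endothelium (11.10 to 11.54 and 9.69 to 10.36). Of the 3 platelet markers, *f13a1* alone had an unadjusted limma p of at most 0.05, and *itga2b* lay below 0. Among all tested probes, 14.1% had levels that did not overlap, a share of single probes rather than of sums. The sums of the mural cell and endothelial markers overlapped, and the part of the other cell types in the endothelial values was not tested.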

How the data were processed

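Total RNA of the semitendinosus muscle was labelled with Cy3 and Cy5 and hybridized to Agilent bovine arrays, all 4 on 1 slide, so no batch could be set as a block. The deposited intensity values are those of the scanner software. Per the file headers, Feature Extraction 10.7.3.1 read the median signal and the local background of each spot, and the processed signals were background-subtracted, detrended, and dye-normalized. The log10 ratios that the authors deposited for the whole series were identical to the log10 ratios in the scanner files. The array design was annotated against Btau_3.1.

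Median signals were taken because mean signals are not among the columns. The normexp correction of the background (offset 50) was applied, arrays were normalized by loess with control and outlier-marked spots at weight 0, and spots of 1 probe were averaged. Log2 ratios were computed from the deposited intensities, for probes well above background in 1 channel on all 4 arrays, and tested against 0, two-sided, with limma 3.58.1 in R 4.3.3 (statmod 1.5.0, and version 1.17.8 of data.table), with Benjamini-Hochberg adjustment over all tested probes. The p-values refer to the spread between 4 pairs of bulls, whose number limits the precision. Genes were named through RefSeq accessions (23492 probes). All probes of the 10 genes are named, and of each other list up to 4 genes with the smallest p were eligible. The members and lists were chosen with earlier results of these data known. Alternatives were the background correction, normalization, filter, variance prior, test, probe summary, and leaving out each array. The methods' t-test means the study's unadjusted test, run here on the same values.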

Additional observations from a re-analysis of the deposited data

Results flagged for a closer look

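Of 68 genes checked for a single array standing apart, 4 did, where chance gives about 5%, and none of them was an endothelial marker. The statistic is the gap of the outlying array to its nearest neighbor as a share of the whole range. It was 0.911 for *ctnnd1*, a catenin that binds vascular endothelial cadherin, with log2 ratios of 0.04, 0.06, 0.07, and 0.36 on arrays 1 to 4. It was 0.862 for *hbb* (0.17, 0.22, 0.11, and 0.86) and 0.882 for *hba* (-0.21, -0.27, -0.18, and 0.44), the globin genes of red blood cells, and array 4 was the outlying one for these genes too. It was 0.843 for *calcr*, a receptor of satellite cells, where array 3 stood apart (-0.46, -0.49, -0.14, and -0.52).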

How the results depend on the processing

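The count of 0 endothelial probes called held under all alternatives except median centring, with 4 called and a median of 0.50, and the median of the genes ranged from -0.090 to 0.14 when 1 array was left out. Signs turned for *kdr* (0.071) and *pecam1* (0.52) with median centring. Leaving out 1 array gave -0.29 to 0.14 for *pecam1* (above 0 without array 2 or 4), -0.090 to 0.18 for *eng* and -0.065 to 0.20 for *tek* (both below 0 without array 1), and -0.087 to 0.30 for *esam* (below 0 without array 4). Signs held but sizes moved by over 1.5 times for *cdh5* (-0.11 without array 2, -0.39 without array 1), *kdr* (-0.066 without array 2), *flt1* (0.13 without array 4), and *cldn5* (0.33 without array 4). Among the 120 tested genes of the other lists, 9 were called, and 14 with plain subtraction, 58 with median centring, 15 with an intensity trend and robust prior, 26 with separate channels, 5 with the mean over all probes, and 0 to 1 when 1 array was left out. Over all probes 10725 were called with median centring, 1666 with the trend, 3210 with separate channels, and 5 to 115 when 1 array was left out. The methods' t-test called 0 probes, 0 endothelial probes and 0 genes of the other lists after Benjamini-Hochberg adjustment, with 5938 probes, 1 endothelial probe, and 31 genes at an unadjusted p of at most 0.05. The cause of these shifts was not tested. The ratio of each array already pairs 1 bull of each breed, so no further block was fitted. Dim probes limit what can be read: *flt1* was not tested when both channels had to be above background.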
